A study of Rattus norvegicus with 9 samples.

Results

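AS-tDR-000052 was the most abundant fragment among 530 tRNA-derived small RNAs measured in rat brain, and it is described here with the 8 fragments that stood beside it in the deposited tables. The 9 fragments were found from the row order, which is the same in all 9 tables: fragments that stood on consecutive rows at 2 or more places in the same order were linked, and the connected set that holds AS-tDR-000052 was taken. The linking used the row order alone, but how the rows were ordered is not stated. AS-tDR-001297 and AS-tDR-007516, ranks 2 and 3 by mean level, first stand on rows 86 and 6 of 2122. The order may therefore not be independent of the counts. AS-tDR-000052, from which the set was built, was chosen by its TPM, the deposited tag count scaled to a fixed library total. Its rank is therefore a description. The tables give identifiers only, and no sequence, parent tRNA or fragment class is attached to them here.

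Male Sprague-Dawley rats were perfused with saline on day 21 after surgery, and the brain tissue next to the injection site in the right globus pallidus was used for the libraries. Rats of the ICH + BYHWD group received 0.5 U of collagenase type VII in 2.5 µl of saline into that site to induce an intracerebral haemorrhage (ICH), and Buyang Huanwu Decoction (BYHWD), a herbal mixture of traditional Chinese medicine, at 4.36 g/kg by gavage once a day for 21 days. ICH rats received the same collagenase injection, and the labels mention no gavage for them. Sham rats had the same operation with 2.5 µl of saline alone. There were 3 libraries per group, numbered 1 to 3 here as names only. Whether each library was 1 rat is not stated, and p-values refer to the spread between libraries, which may be technical. Tissue identity could not be checked against marker genes, because the tables hold tRNA fragments only.

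Transfer RNAs carry amino acids to the ribosome, and cells also cut them into shorter RNAs. Under stress, nucleases such as angiogenin cut mature tRNAs in the anticodon loop, which gives the longer tiRNAs, and other cuts near the ends or in precursor trailers give the shorter tRFs. Some of these fragments are known to repress translation or to bind Argonaute proteins, and injured tissue is a setting in which tiRNAs accumulate. Several fragments of different length can come from the same tRNA, and many tRNAs are encoded by several near-identical genes, so 1 fragment can match more than 1 gene.

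Library totals ran from 530827 to 1066616 tags, and the listed fragments held 71.2 to 80.6% of them. The lowest value above 0 in a library was 134 to 152 TPM, so a 0 was read as below that minimum, and whether any tags were present cannot be told. The smallest count above 0 among the 9 fragments was 123 tags. Sham 3 was the smallest library and sham 1 and 2 were the libraries with the lowest listed share. With the 9 fragments taken out, the listed share ran from 62.6 to 68.3%.

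The 9 fragments filled 71 of the 2122 rows of each table, and 70 of these rows formed an unbroken block from row 129 to row 198. The block was a repeat of 7 fragments. On 8 occasions the order was AS-tDR-009656, AS-tDR-008681, AS-tDR-007910, AS-tDR-000052, AS-tDR-007919, AS-tDR-001450 and AS-tDR-006288. On 2 occasions AS-tDR-005435 and AS-tDR-005415 stood in place of AS-tDR-001450 and AS-tDR-006288. The tables do not say what a repeated row stands for. AS-tDR-005435 and AS-tDR-005415 lie just inside the rule with 2 places each, and asking for 3 places would leave 7 fragments. Just outside it were 4 fragments that adjoined a member at 1 place: AS-tDR-001297, AS-tDR-000494, AS-tDR-000076 and AS-tDR-010027. Their mean levels over the 9 libraries were 69351 TPM for AS-tDR-001297, 2764 TPM for AS-tDR-000494 and 887 TPM for AS-tDR-000076, while AS-tDR-010027 was above 0 in 1 library only.

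Together the 9 fragments held 10.3% ± 3.15 of library tags in ICH + BYHWD, 13.3% ± 4.66 in ICH and 5.74% ± 4.64 in sham (SD, n = 3 each). In single libraries the share was 9.99%, 7.27% and 13.5% in ICH + BYHWD 1 to 3, 14.4%, 17.3% and 8.16% in ICH 1 to 3, and 3.13%, 2.99% and 11.1% in sham 1 to 3. The widest exact binomial 95% interval of such a share spanned 0.169 percentage points, which covers counting error only, so the spread between libraries was far larger than counting error. AS-tDR-000052 made up 69.0 to 83.5% of the tags of the set. Because a library is a whole of shares from mixed tissue, fewer cells of a type and less of the fragment per cell cannot be told apart.

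AS-tDR-000052 stood at 80957, 58753 and 102811 TPM in ICH + BYHWD, at 120498, 142059 and 57606 TPM in ICH, and at 22692, 20655 and 90839 TPM in sham. Sham 1 and 2 were the lowest of all 9 libraries, while sham 3 was above ICH 3 and above ICH + BYHWD 1 and 2, so all groups overlapped. It was the first-ranked fragment in 5 libraries, and AS-tDR-001297 was first in the other 4. The highest level of AS-tDR-000052 was 6.88 times its lowest, against 1.56 times for AS-tDR-001297.

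**Figure D1:**
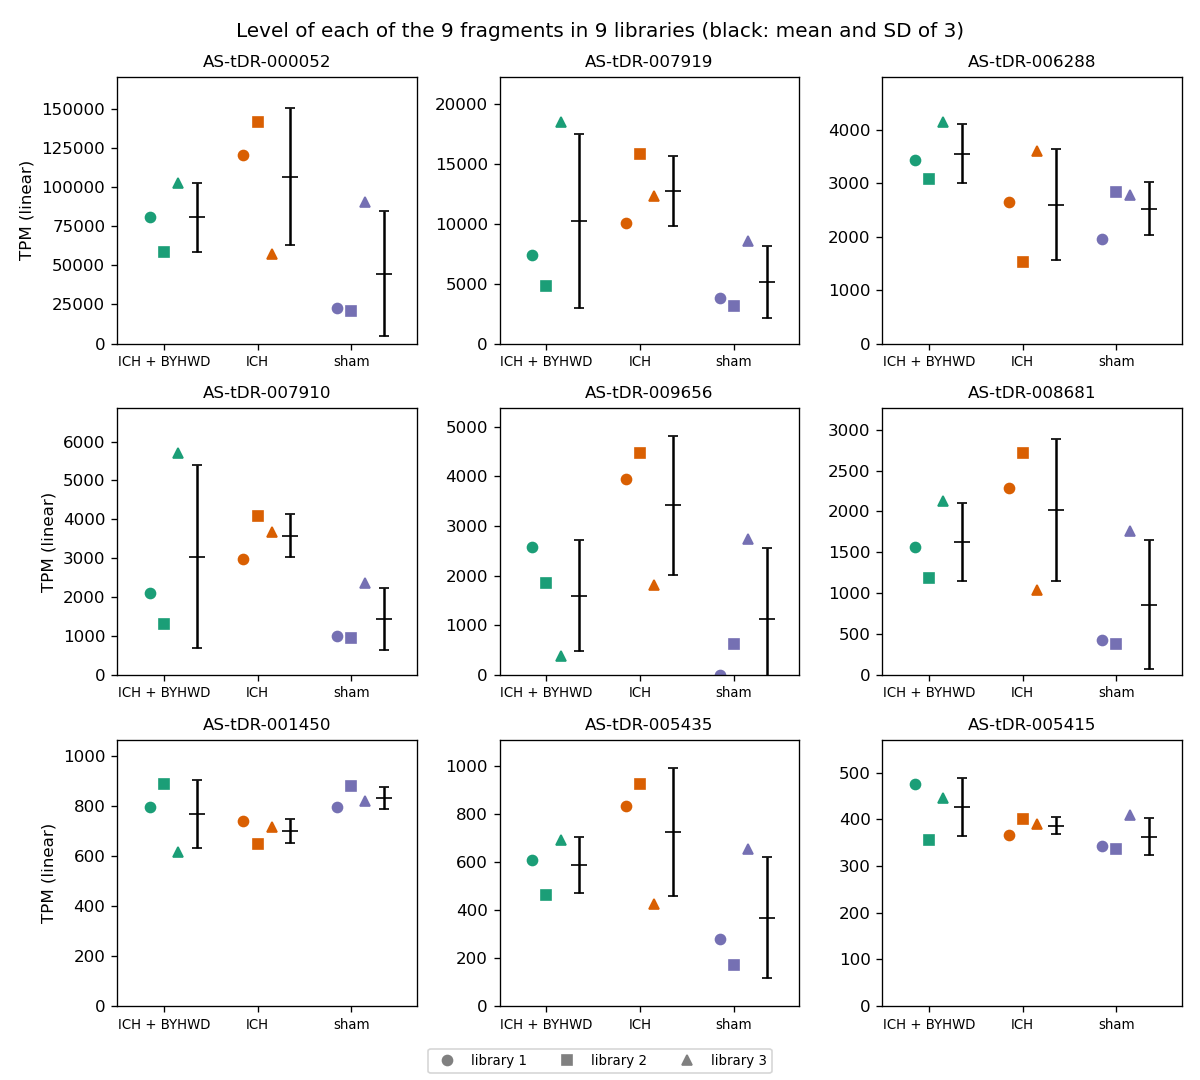
Level of each of the 9 fragments in TPM (linear axis from 0, a scale of its own in each panel) in ICH + BYHWD, ICH and sham; each symbol is 1 library and black bars are the mean and SD of 3, not drawn below 0. AS-tDR-000052, AS-tDR-008681 and AS-tDR-005435 show the same layout, with sham 1 and 2 lowest, ICH 1 and 2 highest and sham 3 apart from the other sham libraries; AS-tDR-001450 and AS-tDR-005415 hardly vary.

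The remaining members were far less abundant. A tag is a count of whole short fragments, so levels were compared without a length correction. Means over the 9 libraries were 9382 TPM for AS-tDR-007919, 2893 TPM for AS-tDR-006288, 2684 TPM for AS-tDR-007910, 2044 TPM for AS-tDR-009656, 1500 TPM for AS-tDR-008681, 766 TPM for AS-tDR-001450, 560 TPM for AS-tDR-005435 and 391 TPM for AS-tDR-005415. AS-tDR-000052 exceeded AS-tDR-007919, and AS-tDR-007919 exceeded AS-tDR-006288, in all 9 libraries. Further down, neighbours in this order changed places: AS-tDR-006288 was above AS-tDR-007910 in 5 of 9 libraries, and AS-tDR-007910 was above AS-tDR-009656 in 4 of 9. AS-tDR-001450 was above AS-tDR-005435 in 6 of 9. The order of the lower members was therefore not stable across libraries.

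The members did not vary as a unit. To see which of them kept a fixed proportion, the ratio of their counts was taken within each library, which needs no scaling factor, and its spread was measured as the SD over 9 libraries of the log2 ratio. AS-tDR-008681 stood at 1.94, 2.01 and 2.07 tags per 100 tags of AS-tDR-000052 in ICH + BYHWD, at 1.90, 1.91 and 1.80 in ICH, and at 1.90, 1.81 and 1.94 in sham. It thus kept a nearly fixed ratio while its own level ran from 373 to 2717 TPM, a 7.28-fold range. The SD of the log2 ratio was 0.06, where counting error alone gives 0.05. Of the 310 other fragments above 0 in all 9 libraries, AS-tDR-008681 had the smallest SD, and the median SD was 1.17. These ratios come from the same 9 libraries and share their totals, and they are given as a description.

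AS-tDR-009656 showed a fixed ratio in most libraries and a break in the others. It stood at 3.18, 3.14 and 0.361 tags per 100 tags of AS-tDR-000052 in ICH + BYHWD, at 3.28, 3.15 and 3.15 in ICH, and at 0, 3.01 and 3.01 in sham. The ratio lay between 3.01 and 3.28 in 7 libraries, but it was far below that in ICH + BYHWD 3 and the fragment was listed at 0 in sham 1. At the median ratio of those 7 libraries, 3.15 per 100, sham 1 would have held 526 tags, against a lowest listed count of 112 there, and ICH + BYHWD 3 would have held 3247 tags, against 372 listed. Of the 36 fragments at 0 in exactly 1 library, AS-tDR-009656 was the only one with at least 300 TPM in all 8 others. This feature was singled out after its values were seen, and the cause was not tested.

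AS-tDR-005435 followed AS-tDR-000052 more loosely. It stood at 0.751, 0.787 and 0.673 tags per 100 tags of AS-tDR-000052 in ICH + BYHWD, at 0.689, 0.651 and 0.735 in ICH, and at 1.23, 0.833 and 0.718 in sham. The ratio was highest in sham 1 and 2, where AS-tDR-000052 was lowest. Its SD of 0.28 ranked 11 among the 310 fragments, above a counting error of 0.08.

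**Figure D2:**
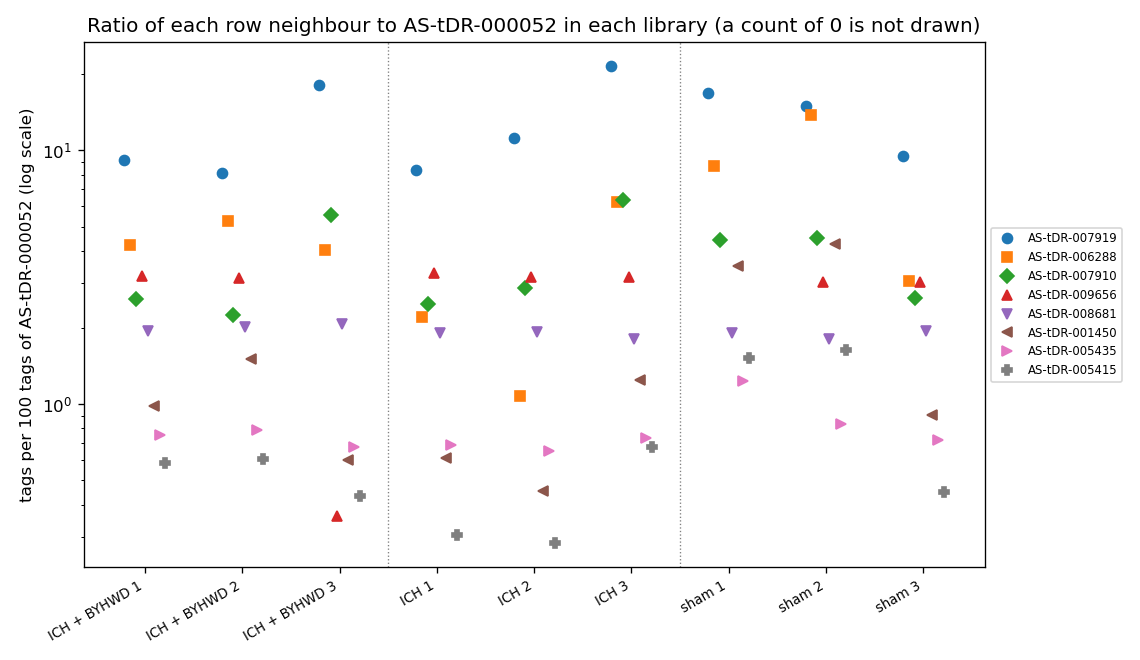
Tags of each of the 8 other fragments per 100 tags of AS-tDR-000052 (log axis) in each of the 9 libraries, with ICH + BYHWD, ICH and sham separated by dotted lines; each symbol is 1 count ratio. AS-tDR-008681 stays between 1.80 and 2.07 and AS-tDR-009656 between 3.01 and 3.28, except for 0.361 in ICH + BYHWD 3 and a 0 in sham 1 that is not drawn, while AS-tDR-001450 and AS-tDR-006288 spread widely.

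AS-tDR-007919 and AS-tDR-007910 moved with each other more closely than with AS-tDR-000052, although both adjoin it in the rows at 10 places. AS-tDR-007919 was at 7391, 4794 and 18542 TPM in ICH + BYHWD, at 10032, 15826 and 12339 TPM in ICH, and at 3807, 3098 and 8605 TPM in sham. AS-tDR-007910 was at 2095, 1316 and 5712 TPM in ICH + BYHWD, at 2985, 4083 and 3661 TPM in ICH, and at 1001, 934 and 2366 TPM in sham. In both, ICH + BYHWD 3 was the highest library, and every ICH library was above every sham library. AS-tDR-007910 stood at 25.8 to 30.8 tags per 100 tags of AS-tDR-007919 over the 9 libraries, with an SD of 0.09 on the log2 scale against 0.04 from counting. Set against AS-tDR-000052, the SD was 0.53 for AS-tDR-007919 and 0.56 for AS-tDR-007910. AS-tDR-007919 stood at 9.13, 8.16 and 18.0 tags per 100 tags of AS-tDR-000052 in ICH + BYHWD, at 8.33, 11.1 and 21.4 in ICH, and at 16.8, 15.0 and 9.47 in sham. ICH + BYHWD 3, ICH 3, sham 1 and sham 2 were thus above the other 5 libraries.

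AS-tDR-001450, AS-tDR-005415 and AS-tDR-006288 did not share the swings of AS-tDR-000052. AS-tDR-001450 was at 796, 886 and 617 TPM in ICH + BYHWD, at 738, 647 and 713 TPM in ICH, and at 795, 880 and 819 TPM in sham. AS-tDR-005415 was at 475, 355 and 446 TPM in ICH + BYHWD, at 367, 401 and 391 TPM in ICH, and at 343, 337 and 409 TPM in sham. Both stayed within 1.44-fold and 1.41-fold over all libraries. AS-tDR-006288 was at 3428, 3084 and 4156 TPM in ICH + BYHWD, at 2650, 1530 and 3606 TPM in ICH, and at 1962, 2843 and 2775 TPM in sham, and every ICH + BYHWD library was above every sham library. The log2 ratio to AS-tDR-000052 had an SD of 1.12 for AS-tDR-001450, 1.08 for AS-tDR-006288 and 0.90 for AS-tDR-005415, ranks 113, 87 and 43 among the 310 fragments, beside a median of 1.17. The 3 were nearer to each other, with SDs of 0.31 to 0.48. Set against the less variable AS-tDR-007516 and AS-tDR-001297, all fragments gave medians of 0.44 and 0.47, so these SDs do not mark the 3 out. AS-tDR-001450 and AS-tDR-006288 adjoin in the rows at 8 places.

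**Figure D3:**
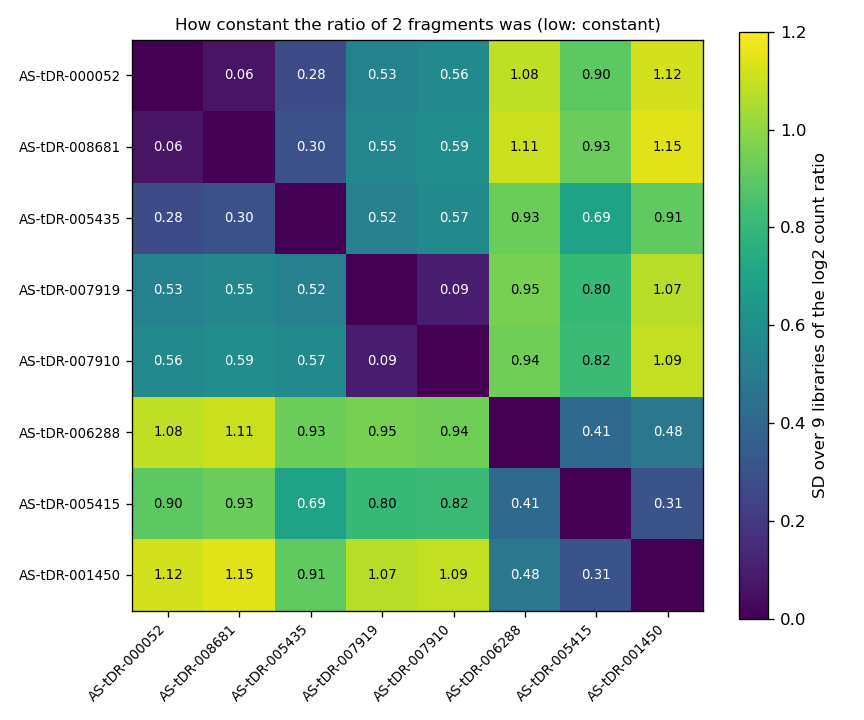
SD over the 9 libraries of the log2 count ratio for each pair of the 8 fragments above 0 in every library; dark cells are pairs with a nearly constant ratio, and AS-tDR-009656, listed at 0 in sham 1, is not drawn. The darkest pairs are AS-tDR-008681 with AS-tDR-000052 (0.06) and AS-tDR-007910 with AS-tDR-007919 (0.09), and the fragments were placed in this order after their values were seen.

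Over the 7 members that could be compared with AS-tDR-000052, the median SD was 0.56, beside 1.17 over the 310 fragments, and 2 members, like 26 fragments in all (8.39%), were under 0.5. The row neighbours of other abundant fragments gave a median of 0.25 to AS-tDR-001297 (5 fragments) and of 0.33 to AS-tDR-007516 (7 fragments), where all fragments gave medians of 0.47 and 0.44. Some fragments outside the set kept a steadier ratio to AS-tDR-000052 than every compared member except AS-tDR-008681. The 5 closest were AS-tDR-010089, AS-tDR-008354, AS-tDR-008475, AS-tDR-010019 and AS-tDR-008347, with SDs of 0.10, 0.17, 0.19, 0.19 and 0.21. They stood at 1.33 to 1.67, 0.976 to 1.43, 3.15 to 4.95, 2.24 to 3.47 and 10.4 to 16.9 tags per 100 tags of AS-tDR-000052, in the same order. None of the 5 adjoined a member in the rows.

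The first comparison asked which fragments differ after a haemorrhage. The mean ± SD of AS-tDR-000052 over 3 libraries was 106721 ± 43880 TPM in ICH, against 44729 ± 39946 TPM in sham. ICH over sham came to 1.51 (SE 0.70) on the log2 scale, 2.84-fold, where the 95% interval reached from 0.922-fold to 8.74-fold, and edgeR's quasi-likelihood test gave an adjusted p of 0.507. On the same log2 scale AS-tDR-008681 was at 1.49 (SE 0.73) and AS-tDR-005435 at 1.23 (SE 0.58), each with an adjusted p of 0.508 in the edgeR test. For AS-tDR-009656 it was 1.85 (SE 1.65), with a 95% interval of 0.254-fold to 51.5-fold and a 0 in sham 1. The means of all 4 differed by more than the SD of either group, but none passed the adjusted p of 0.05.

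The mean of AS-tDR-007919 was 12732 ± 2917 TPM in ICH, against 5170 ± 2996 TPM in sham, and that of AS-tDR-007910 was 3577 ± 554 TPM in ICH, against 1434 ± 808 TPM in sham (SD over 3 libraries). Both had a log2 fold change of 1.51 (SE 0.61) and an adjusted p of 0.507 in the edgeR test. Their unadjusted p values were 0.039 and 0.038 by edgeR, ranks 30 and 28 among the 455 fragments tested. Log2 fold changes were -0.08 (SE 0.21) for AS-tDR-001450, 0.28 (SE 0.23) for AS-tDR-005415 and 0.12 (SE 0.22) for AS-tDR-006288, the last turning to -0.03 with no scaling factor and with upper-quartile factors. In TPM, every ICH library of AS-tDR-001450 was below every sham library, at 647 to 738 against 795 to 880.

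All 9 members passed the low-count filter, and 0 passed an adjusted p of 0.05 in either direction in edgeR, as did 0% of the 455 fragments. DESeq2 called 0 members too, with a smallest adjusted p of 0.0849 among them, but called 17 fragments higher and 10 lower in all. At an unadjusted p under 0.05 in edgeR there were 2 members higher and 0 lower, against 5.27% of all fragments higher and 3.74% lower. In either direction, 5 members were under 0.05 with DESeq2 and 5 with limma-voom. In edgeR 0 were without ICH 2, without sham 1 or without sham 2. No share of all fragments is at hand for these other counts. ICH and sham did not overlap for 2 members higher and 1 lower, where 4.84% and 8.35% of all fragments did so. A log2 fold change above 1 was seen for 6 of 9 members and for 23.5% of all fragments, one below -1 for 0 members and 7.03% of all, and one above 0 for 8 members and 48.8% of all. The median was 1.49 over the members and -0.02 over all fragments. Members with steady ratios to each other, such as AS-tDR-000052 and AS-tDR-008681, are not separate observations in these counts.

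This comparison turned on sham 3. Without that library, the log2 fold change of AS-tDR-000052 was 2.37 (SE 0.45) with an edgeR adjusted p of 0.00868, and 5 members passed: AS-tDR-000052, AS-tDR-008681, AS-tDR-005435, AS-tDR-007919 and AS-tDR-007910. Of the 479 fragments tested without sham 3, 8.35% passed higher and 0.835% lower, so calls were gained over the whole table. Restricted to the 311 fragments that every library lists above 0, the fit without sham 3 passed 0 of the 8 members it holds, and 0.322% of all fragments in each direction, and the log2 fold change of AS-tDR-000052 was 2.66 with an adjusted p of 0.060 by edgeR. When sham 3 was left out and each 0 was replaced by its library's lowest count, 6 members passed higher, beside 7.92% of 530 fragments higher and 2.64% lower. Sham 3 also had the lowest library total, whose part in the result was not tested. ICH 2 had the lowest TMM scaling factor, 0.647, and 23 fragments were at 0 in ICH 2 only, the most of any library. The part of these features of ICH 2 was not tested either.

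The next comparison asked what the decoction altered in rats with a haemorrhage. The mean of AS-tDR-000052 was 80840 ± 22029 TPM in ICH + BYHWD, against 106721 ± 43880 TPM in ICH (SD over 3 libraries), and the log2 fold change was -0.84 (SE 0.69) with an edgeR adjusted p of 0.624. It was -0.32 with no scaling factor. The interval ran from 0.185-fold to 1.69-fold, so it covers both a large decrease and an increase. The mean of AS-tDR-007919 was 10242 ± 7304 TPM in ICH + BYHWD, against 12732 ± 2917 TPM in ICH (SD over 3 libraries), and ICH + BYHWD 3 stood far above the other treated libraries. Of the 9 members, AS-tDR-006288 alone had a log2 fold change above 0, at 0.21 (SE 0.22), and the others lay between -1.51 for AS-tDR-009656 and -0.19 for AS-tDR-001450, though AS-tDR-001450 and AS-tDR-005415 turned to 0.19 and 0.20 with no scaling factor. A value above 0 was seen for 47.9% of all fragments. One below -1 was seen for 1 member and 17.1% of all, and one above 1 for 0 members and 6.15% of all. No member passed in this comparison, with 0% of all fragments called at an adjusted p of 0.05, and no member had an unadjusted p under 0.05, beside 4.4% of fragments higher and 2.2% lower. DESeq2 called 0 members, and 5 fragments higher and 5 lower in all. The groups overlapped for all 9 members, whereas they did not for 11.4% of fragments higher and 1.32% lower. The median log2 fold change was -0.71 over the members and -0.09 over all fragments, and with no scaling factor it was -0.23 over the members and 0.22 over all fragments.

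The last comparison set treated rats against sham. AS-tDR-000052 was at 80840 ± 22029 TPM in ICH + BYHWD, against 44729 ± 39946 TPM in sham (SD over 3 libraries). On the log2 scale the difference was 0.67 (SE 0.69), 1.59-fold, where the 95% interval reached from 0.525-fold to 4.79-fold and the edgeR adjusted p was 0.997. AS-tDR-006288 was at 3556 ± 547 TPM in ICH + BYHWD, against 2527 ± 490 TPM in sham (SD over 3 libraries). Its groups did not overlap in TPM, as was the case for 7.47% of all fragments on the higher side and 3.08% on the lower side, but its log2 fold change of 0.33 (SE 0.22) had an adjusted p of 0.997 in the edgeR test. Of the 455 fragments 0% passed an adjusted p of 0.05 in edgeR, and 0 members did, and DESeq2 called 0 members, with 11 fragments higher and 8 lower in all. At an unadjusted p under 0.05 there were 0 members, beside 0.22% of fragments higher and 3.96% lower. A log2 fold change above 0 was seen for 8 members and 56.7% of all fragments, and one above 1 for 0 members and 8.13% of all, while 0 members and 5.27% of all were below -1. The median log2 fold change was 0.50 over the members and 0.06 over all fragments. Without sham 3, AS-tDR-000052 and AS-tDR-008681 passed, with log2 fold changes of 1.83 and 1.95 and edgeR adjusted p values of 0.048 and 0.043, beside 3.55% of 479 fragments higher and 0% lower, and the median over the members was 1.47. Of these, 0 passed when the fit without sham 3 was restricted to the 311 fragments, where 0% of all passed, or when zeros were set to the lowest listed count, where 0% passed higher and 0.189% lower. The comparisons share libraries, so their values are not separate observations.

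**Figure D4:**
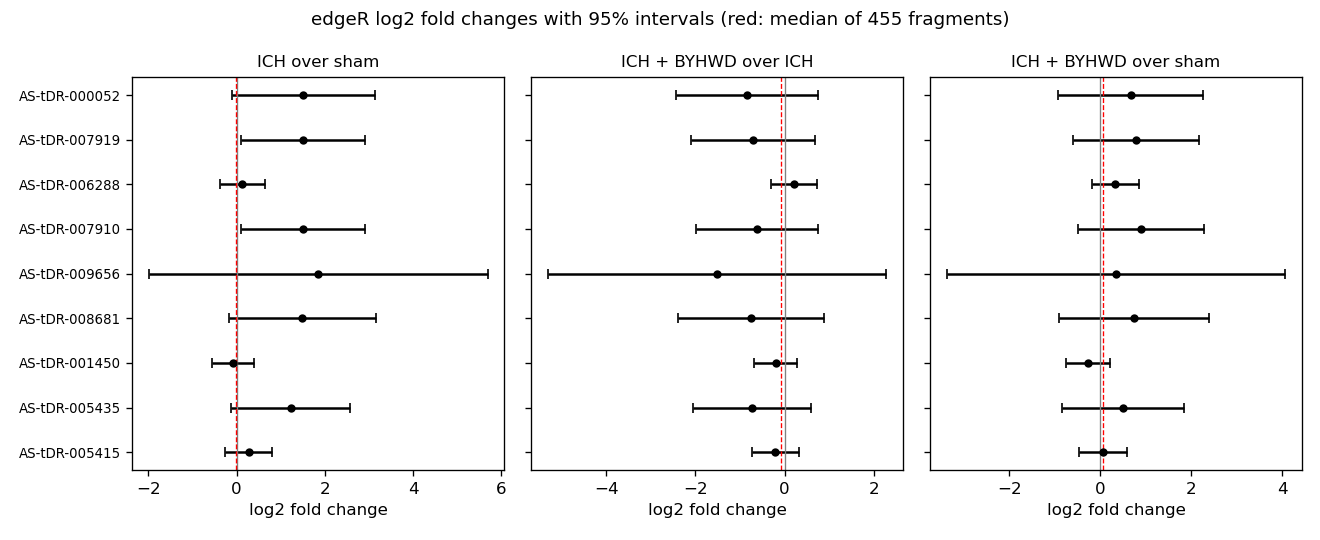
edgeR log2 fold change (points) with its 95% interval (bars) for each of the 9 fragments in ICH over sham, ICH + BYHWD over ICH and ICH + BYHWD over sham; the grey line is 0 and the red dashed line the median of 455 fragments. The intervals of AS-tDR-007919 and AS-tDR-007910 for ICH over sham lie above 0 before adjustment, every other interval includes 0, and AS-tDR-009656 has the widest.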

How the data were processed

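Small RNA libraries of 9 rat brain samples were analysed from 1 deposited table each. Per the labels' protocols, a pretreatment kit removed RNA modifications that hinder library construction, and fragments of 15 to 50 nt were cut from a gel. FastQC, cutadapt and Novoalign 2.07.11 are named in the submitters' processing notes, as is hg19, a human assembly whose role for rat reads is unstated; annotation and counting rule: not given in the sources used here. The authors deposited tag counts per fragment, which are whole numbers and not normalized. A second deposited column, headed TPM and kept as another unit because rows repeat, equals the count scaled to a fixed total, from which each library's own total was recovered. Identical repeated rows were reduced to 1 per fragment.

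Counts were tested with edgeR 4.0.16 (R 4.3.3) on all fragments: TMM factors, filterByExpr by group (minimum count 10, 455 fragments kept), a robust quasi-likelihood fit of 9 libraries, and Benjamini-Hochberg adjustment over all fragments tested with a threshold of 0.05. The standard error is the absolute log2 fold change over the root of its F statistic. The script was tested on simulated data with a fixed spread for every fragment and no listing minimum. That test therefore does not show how the fit behaves on these libraries. Counting error of a ratio was taken as Poisson. DESeq2 1.42.0 and limma 3.58.1 served as alternatives, beside other scalings, filters, zero treatments and left-out libraries. All 9 members are named, with the fragments adjoining at 1 place and the 5 most alike by SD. Both settings that combine the removal of sham 3 with a treatment of zeros were added after seeing the data. The members, lists and alternatives were chosen with earlier results of these data known.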

Additional observations from a re-analysis of the deposited data

How the results depend on the processing

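The 27 fold changes of the members were recomputed under 21 settings, which gave 561 values: 520 kept their direction and side of the threshold, 13 passed it and 28 changed sign. The 13 all came without sham 3. With 1 library left out, the members called ran from 0 to 5 for ICH against sham, stayed at 0 for ICH + BYHWD against ICH, and ran from 0 to 2 for ICH + BYHWD against sham, each highest count coming without sham 3, where 40 of 479 fragments passed higher (4 lower) in the first of these and 17 (0 lower) in the last. The members' median log2 fold change ran from 0.95 (without sham 2) to 1.95 (without sham 3), from -0.90 (without ICH 3) to -0.16 (without ICH + BYHWD 2) and from 0.32 (without ICH + BYHWD 3) to 1.47 (without sham 3) in the same order of comparisons. The planned settings that keep all libraries of a comparison called 0 members in each comparison. The log2 fold change of AS-tDR-000052 with 1 library left out ran from 0.98 to 2.37 for ICH over sham, from -1.22 to -0.38 for ICH + BYHWD over ICH and from 0.45 to 1.83 for ICH + BYHWD over sham. Under those planned settings it ran from 1.18 to 1.65, from -0.89 to -0.32 and from 0.65 to 1.00 in the same order. Of both settings added after seeing the data, the one without sham 3 on fragments above 0 throughout gave AS-tDR-000052 2.66 for ICH over sham and called 0 members, with 1 fragment higher and 1 lower of 311. The other, without sham 3 and each 0 replaced by that library's lowest count, gave 2.35 (edgeR adjusted p 0.0172) and called 6 members for ICH against sham, with 42 fragments higher and 14 lower of 530, and 0 for ICH + BYHWD against sham, with 0 higher and 1 lower.

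The fold changes that changed sign were at most 0.34 in size on the log2 scale, and 23 of the 28 were of AS-tDR-001450 or AS-tDR-005415. For ICH + BYHWD over ICH, AS-tDR-001450 became 0.19 with no scaling, 0.069 with upper-quartile factors, 0.13 with recovered totals, 0.050 with no filter, and 0.069 with zeros replaced, with or without sham 3. AS-tDR-005415 became 0.20, 0.068, 0.14, 0.036 and 0.056 under the same settings, in that order, the last with or without sham 3. With 1 library left out, AS-tDR-001450 ran from -0.34 to 0.060 and AS-tDR-005415 from -0.36 to 0.12 in that comparison. For ICH over sham, AS-tDR-006288 became -0.028 with no scaling and -0.034 with upper-quartile factors, and with 1 library left out it ran from -0.075 to 0.29 and AS-tDR-001450 from -0.22 to 0.066. For ICH + BYHWD over sham, leaving out 1 library gave -0.036 to 0.27 for AS-tDR-005415 and -0.20 to 2.38 for AS-tDR-009656. With no scaling, the median log2 fold change of all fragments was -0.23 for ICH over sham, 0.22 for ICH + BYHWD over ICH and 0.19 for ICH + BYHWD over sham. The summed share of the 9 fragments was 13.7% in ICH + BYHWD as a share of listed counts, and 19.3%, 22.6% and 10.4% in ICH + BYHWD, ICH and sham with every repeated row counted. AS-tDR-008681 stayed most like AS-tDR-000052 by Pearson or Spearman correlation and without any 1 library. No paired analysis was possible because titles give each library a number of its own. The listing minimum of 134 to 152 TPM limits what can be said of AS-tDR-009656 in sham 1.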
